A study of Mus musculus with 6 samples.

Results

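The loci described here are those at which the most abundant transcript differed between neural induction and growth medium in C17.2 cells, a mouse multipotent neural progenitor line, established in culture, of the cross CD1 x C57BL/6. The authors deposited a table of transcripts assembled with StringTie, 1 row per transcript, in FPKM (fragments scaled by transcript length and library depth), and each row belongs to a locus. A locus was taken when it had at least 2 rows, when its rows summed to at least 10 FPKM in each of the 4 induction and control libraries, and when the highest row was the same in both induction libraries, the same in both control libraries, and different between them. Of 7171 loci, 3964 had at least 2 rows, 2623 of those met the floor, and 84 of those switched.

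The NIM (post-neural-induction) group was cultured in Knockout DMEM with GlutaMAX, N2 supplement and the neurotrophin BDNF at 10 ng/ml. The heme group was treated with heme, with no dose or duration given in the sources used here. The control group stayed in DMEM/F12 growth medium with 10% serum. Each group has 2 replicates in the labels, all 3 groups are the same cell line, and the duration of induction is not given. Since NIM and control differ in base medium, serum and supplements as well as in BDNF, these cannot be told apart.

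Many mammalian genes make more than 1 transcript. Alternative promoters change the first exon, alternative splicing includes or skips internal exons, and alternative polyadenylation changes the last exon, so that the protein, or the untranslated ends that steer translation and stability, can differ while the gene stays on. In the developing nervous system, programmes of alternative splicing accompany the passage from progenitor to neuron. A transcript's FPKM is an estimate, because a short read often fits several transcripts of a locus and is divided among them.

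Depth was even across the libraries, at 4.14 to 4.56 gigabases of mapped sequence from coverage divided by FPKM. FPKM carries no read count, so no counting interval is given. The heme replicate 2 column was a rescaled copy of replicate 1, at 1.25 to 1.5 times its value in all 13963 rows above 0, and heme was therefore counted as 1 library. Of 8 neural progenitor markers 4 were listed (Nes, Sox2, Vim and Hes1), with a summed level of 897 to 915 FPKM in NIM, 893 in heme and 787 to 911 in control. Of 9 neuron markers, Tubb3 and Map2 were listed, at 23.2 to 29.0 FPKM in NIM, 32.6 in heme and 21.8 to 23.3 in control. Of 6 mesenchymal markers 5 were listed, including Col1a1, Col1a2 and Acta2, at 2464 to 2839 FPKM in NIM, 2606 in heme and 2076 to 2700 in control. The oligodendrocyte, astrocyte, endothelial, microglia and erythroid markers were not analysed here. Control replicate 2 stood apart in some genes, with Hmox1 at 222 FPKM against 43.7 to 79.4 in the other 4 libraries. In bulk RNA, fewer cells of a type and less RNA per cell cannot be told apart.

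The highest row was itself a variable quantity in these data. The 2 NIM libraries shared their highest row at 1927 of the 2623 loci (73.5%) and the 2 control libraries at 1942 (74.0%). NIM replicate 1 and control replicate 1 shared it at 1983 (75.6%), and NIM replicate 2 and control replicate 2 at 1927 (73.5%). Libraries of 1 group thus shared their highest row about as often as NIM and control libraries of the same replicate number. NIM replicate 1 with control replicate 2, and NIM replicate 2 with control replicate 1, were not compared. All 4 libraries had 1 and the same highest row at 1487 loci (56.7%).

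The rule found 84 loci, or 3.2% of the 2623. When the libraries were paired the other way, NIM 1 with control 1 against NIM 2 with control 2, the same rule found 97 loci, or 3.7%. Grouping by condition therefore gave no more switched loci than grouping by replicate number. The widths of the switches in the 2 sets were also compared, with no test. The margin of a locus is the share of its FPKM on the row that is highest minus the share on the other switching row, at its smallest over the 4 libraries. The median margin was 14.7 percentage points over the 84 loci and 11.7 over the 97. A margin of at least 5 points was found at 59 against 65 loci, and of at least 10 at 53 against 51. At least 25 points was found at 34 against 30, and at least 50 at 20 against 14. The widest margin was 79.8 points by condition and 73.6 in the swapped pairing. Without control replicate 2, so that control replicate 1 alone set the control row, 288 loci switched by condition and 340 in the swapped pairing. The counts were 316 and 294 without NIM replicate 1, 272 and 312 without NIM replicate 2, and 275 and 275 without control replicate 1.

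When the highest row also had to be at least 1.5 times the second row of its library in all 4 libraries, 33 of 1496 eligible loci remained by condition (2.21%), against 27 (1.8%) in the swapped pairing. At 2 times, 25 of 1103 remained (2.27%), against 17 (1.54%). At 3 times, a ratio added after the data were seen, 19 of 697 remained (2.73%), against 7 (1%). These counts describe 4 libraries and were not tested. At the low end, 25 of the 84 loci and 32 of the 97 had a margin under 5 points. Wac, a WW domain adaptor named after its values were seen, had the smallest, 0.00384 points, with its 2 rows at 12.4 and 12.4 FPKM in control replicate 1. Its 2 rows were thus nearly tied in that library.

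**Figure D1:**
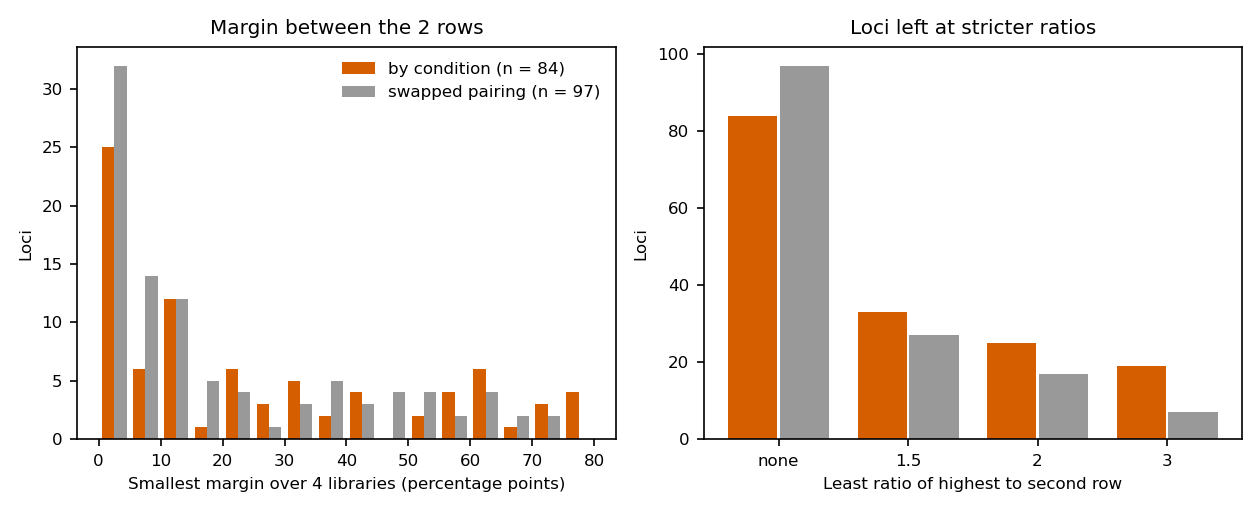
Left, number of loci (vertical axis) by smallest margin between the 2 switching rows over 4 libraries, in percentage points (horizontal axis), for the 84 loci grouped by condition and the 97 of the swapped pairing. Right, number of loci left when the highest row must exceed the second by a given ratio: 84, 33, 25 and 19 by condition against 97, 27, 17 and 7 in the swapped pairing.

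A closer account of the 84 shows their makeup. The row that was highest in NIM, called the induction row below, had a median share of 61.1% of its locus in NIM and 17.8% in control. The row that was highest in control, the control row, had a median share of 17.5% in NIM and 62.3% in control. At 70 of the 84 loci both rows moved in opposite ways with no overlap between the groups. Among all 2623 eligible loci, 10.8% had 2 leading rows that did so, and as the rule used these values nothing is read from the difference. The induction row was listed at 0 in both control libraries at 5 loci, which were Eps8, Kansl1, Ndufv1, Psmg1 and 3300005D01Rik. The control row was listed at 0 in both NIM libraries at 7 loci, which were Cep57, Cnot10, Tbl3, Oaz2, Rnf40, Slc25a5 and Mpv17l2. Of all 15113 rows, 1035 to 1115 were at 0 in each of the 4 libraries. The share of all eligible loci with such a pattern was not computed, and the rule used these values. Nothing is therefore read from the 5 and the 7. Both rows had an Ensembl identifier at 48 loci, 1 of them at 30 and neither at 6. The induction row was the longer at 40 loci and the shorter at 44, with more exons at 24, fewer at 30 and as many at 30, so no common direction in length or exon number was seen. Coverage of the highest row lay between 17.7 and 899 reads per base, with a median of 58.2.

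**Figure D2:**
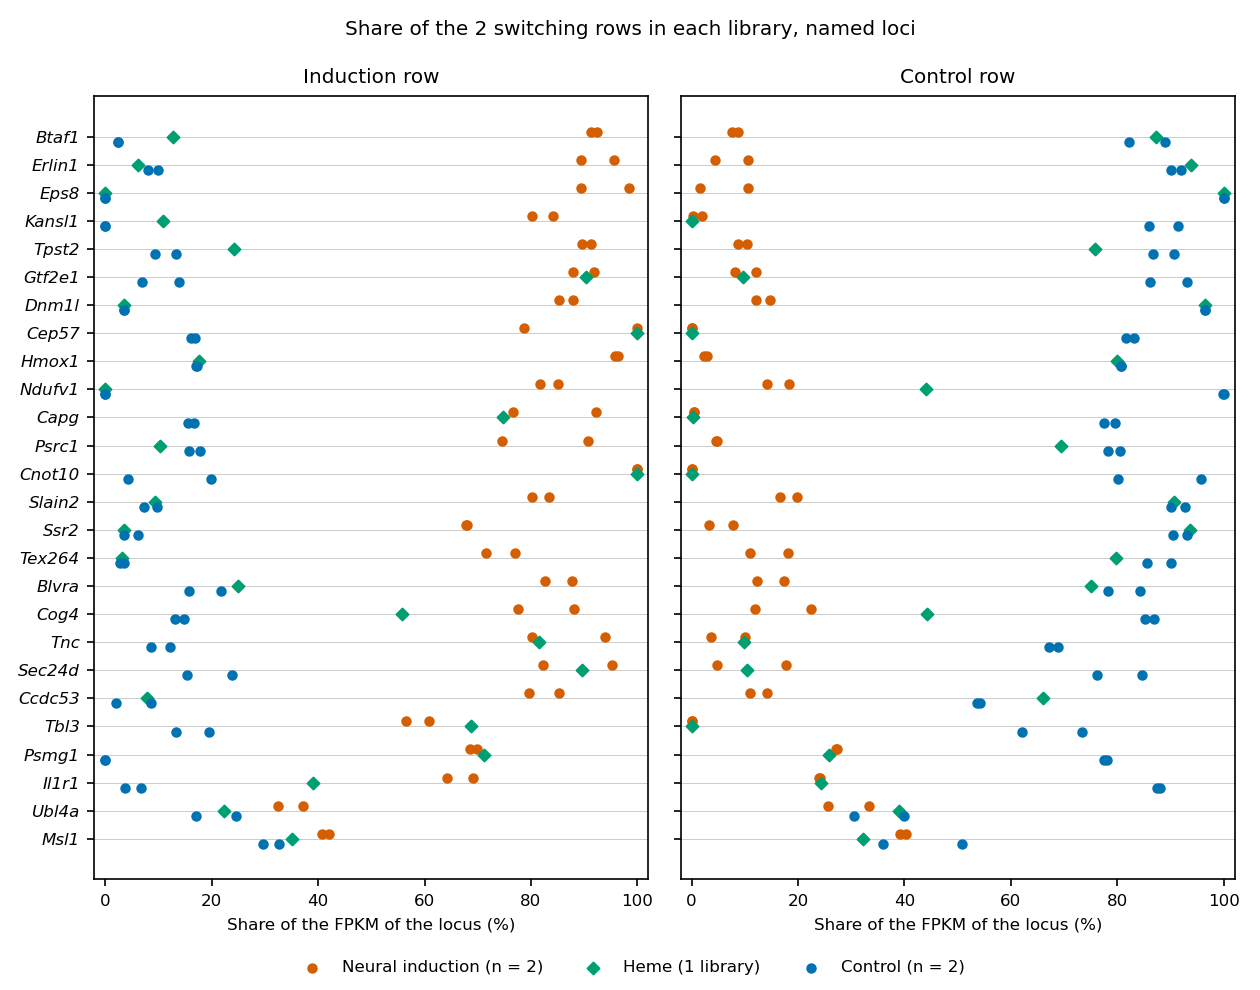
Share of the locus FPKM (horizontal axes, percent) held by the induction row (left) and the control row (right) at 26 named loci, ordered by margin, with 2 joined genes in the last rows. Each point is 1 library: 2 neural induction, 1 heme and 2 control. At Dnm1l the induction row held 85.2% and 87.9% in NIM against 3.55% and 3.49% in control, while at Msl1 the groups lay close together.

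Both rows matched a GENCODE M21 transcript in position, exon number and length at 42 loci. At 10 of these the coding sequences differed by 1 block, and its length was a multiple of 3 bases in all 10. Coding sequences that keep 1 reading frame on both sides of a block must differ by such a length, so nothing is read from it. At 5 loci described here the block was a whole cassette exon, which splicing includes or skips. The sequences are shown because they are the stretches of message whose presence differs between the highest row of NIM and that of control. They are coding-strand sequences from the GENCODE M21 transcripts (GRCm38), read 5′ to 3′, with the cassette exon in capitals and up to 12 bases of the neighbouring exons in lower case.
Slain2, chr5:72965804-72965881, plus strand, in the control row: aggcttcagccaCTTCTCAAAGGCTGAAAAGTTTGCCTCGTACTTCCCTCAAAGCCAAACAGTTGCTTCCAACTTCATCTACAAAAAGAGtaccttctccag
Nsun2, chr13:69612938-69613042, plus strand, in the induction row: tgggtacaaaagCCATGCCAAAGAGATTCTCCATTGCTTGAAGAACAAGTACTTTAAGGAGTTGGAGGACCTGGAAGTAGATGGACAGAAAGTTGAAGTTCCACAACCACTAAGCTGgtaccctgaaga
Col15a1, chr4:47280149-47280214, plus strand, in the induction row: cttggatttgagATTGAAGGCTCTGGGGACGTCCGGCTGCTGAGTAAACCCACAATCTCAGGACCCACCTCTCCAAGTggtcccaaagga
Ssbp3, chr4:107027217-107027297, plus strand, in the induction row: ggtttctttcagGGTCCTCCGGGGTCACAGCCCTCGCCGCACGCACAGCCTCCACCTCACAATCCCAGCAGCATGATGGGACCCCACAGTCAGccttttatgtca
Tlk2, chr11:105210545-105210640, plus strand, in the induction row: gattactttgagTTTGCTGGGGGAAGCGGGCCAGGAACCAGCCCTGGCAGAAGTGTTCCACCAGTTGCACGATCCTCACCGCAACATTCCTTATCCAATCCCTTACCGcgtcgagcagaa

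The induction row held the cassette exon at Nsun2, Col15a1, Ssbp3 and Tlk2, and lacked it at Slain2. Nsun2, Col15a1, Ssbp3 and Tlk2 lie outside the rule for named genes and were chosen for their structure after their values were seen.

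Slain2, a microtubule plus-end protein that promotes microtubule growth, lacked an exon of 78 bases in the row highest in NIM. The row without the exon (ENSMUST00000144843) was at 15.4 and 14.2 FPKM in NIM, 1.82 in heme and 1.62 and 1.08 in control. The row with it (ENSMUST00000143829) was at 3.82 and 2.85 FPKM in NIM, 17.7 in heme and 14.9 and 13.7 in control. The heme library was like the controls at both rows.

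Nsun2, a methyltransferase that makes 5-methylcytosine in tRNA and mRNA, held 105 more bases of coding exon in the row highest in NIM. The row with the exon was at 82.2 and 96.0 FPKM in NIM, 34.4 in heme and 37.2 and 41.9 in control. The row without it was at 4.81 and 0.913 FPKM in NIM, 75.2 in heme and 76.1 and 91.0 in control. Heme again sat with control.

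Col15a1 encodes the chain of collagen XV, a basement membrane collagen. Its row with the exon of 66 bases was at 13.8 and 14.4 FPKM in NIM, 2.72 in heme and 3.25 and 7.40 in control, and its row without at 5.61 and 6.15 in NIM, 21.7 in heme and 19.9 and 10.1 in control. The control libraries differed from each other more than the NIM libraries did. Ssbp3, a cofactor of LIM-domain transcription complexes, had its row with the exon of 81 bases at 14 and 25.4 FPKM in NIM, 25.9 in heme and 4.24 and 3.57 in control. Its row without was at 10.3 and 4.45 FPKM in NIM, 4.66 in heme and 23.6 and 20.6 in control, so NIM replicate 1 was nearly even between the rows. Tlk2, a chromatin-assembly kinase, had its row with the exon of 96 bases at 6.90 and 8.27 FPKM in NIM, 8.05 in heme and 3.19 and 3.19 in control. Its row without was at 2.16 and 2.36 FPKM in NIM, 1.82 in heme and 5.26 and 7.03 in control. At Ssbp3 and Tlk2 the heme library was like NIM.

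**Figure D3:**
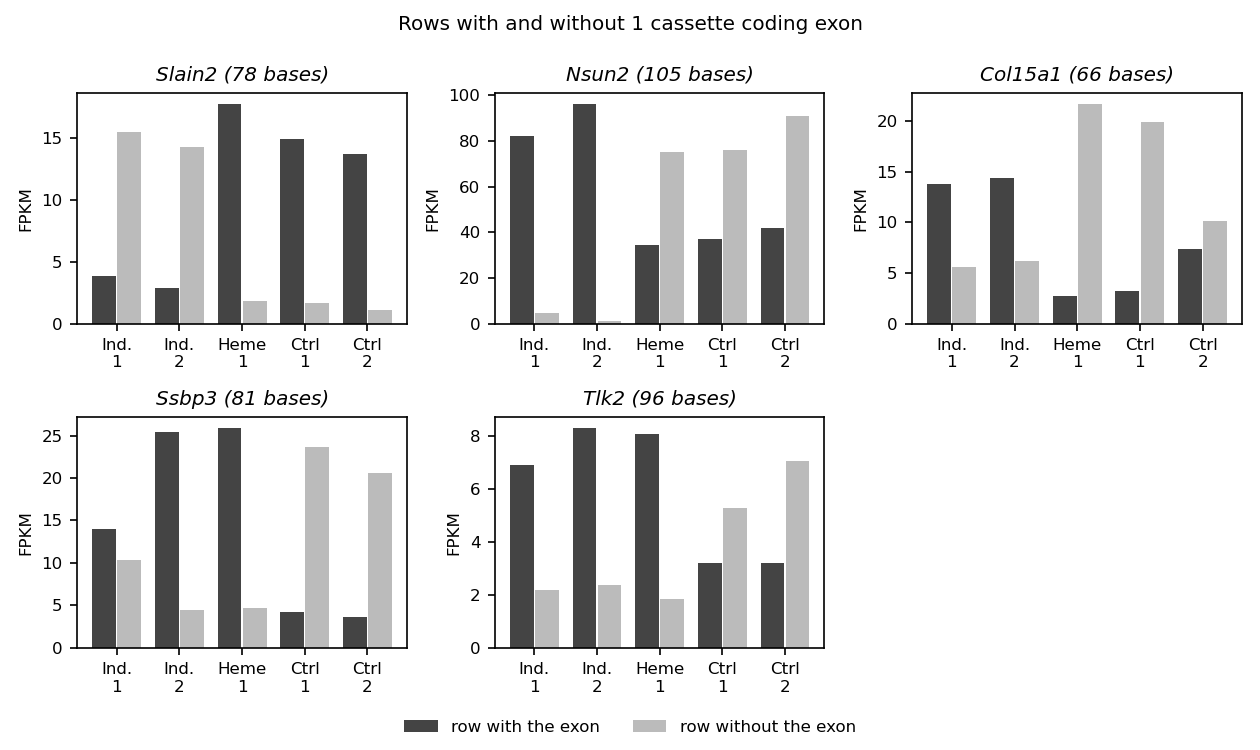
FPKM (vertical axes, from 0) of the row with and the row without 1 cassette coding exon at 5 loci, in NIM replicates 1 and 2 (Ind.), the heme library and control replicates 1 and 2 (Ctrl), 1 bar per library. The row with the exon is the taller in both NIM libraries at 4 loci and the shorter at Slain2, where it is at 3.82 and 2.85 FPKM.

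Differences of 1 block at an exon edge were found at 4 loci. Ndufv1, the flavin-binding subunit of respiratory complex I, lacked 27 coding bases in the induction row. The stretch is shown because it lies near the start of a protein that is imported into mitochondria, with the bases found only in the control row in capitals, from the same transcripts.
Ndufv1, chr19:4012551-4012577, minus strand, in the control row: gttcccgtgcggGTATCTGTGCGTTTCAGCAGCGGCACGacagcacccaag
The induction row of Ndufv1 (ENSMUST00000128787) was at 23.9 and 23.4 FPKM in NIM and listed at 0 in heme and in both controls. Its control row (ENSMUST00000042497) was at 5.36 and 3.89 FPKM in NIM, 12.6 in heme and 26.2 and 25.9 in control. In heme a row other than these 2 was highest. Ccdc53, a subunit of the WASH complex that nucleates actin on endosomes, and Trpm7, an ion channel with a kinase domain, each differed by 3 bases. Tnfaip2, a gene induced by tumour necrosis factor, differed by 51. The induction row of Ccdc53 was at 17.6 and 15.1 FPKM in NIM, 1.29 in heme and 0.273 and 1.00 in control, and its control row at 2.25 and 2.68 in NIM, 10.9 in heme and 7.09 and 6.19 in control. The locus sum of Ccdc53 was also higher in NIM, at 20.6 and 18.9 FPKM, against 16.5 in heme and 13.1 and 11.6 in control. Trpm7 had a margin of only 1.02 points.

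Coding sequence was the same in both rows at 12 of the 42 loci, different at 27, and given for fewer than 2 rows at 3. The 27 include Msl1 with Casc3, which are neighbouring genes. They also include Sh3kbp1, Gusb and Gpi1, where 1 row is annotated as a type other than protein coding. Not all 27 are thus switches between 2 proteins of 1 gene. In the swapped pairing 44 loci had both rows in GENCODE, of which 13 had the same coding sequence, 22 a different one and 9 had it in fewer than 2 rows. The 2 rows started more than 300 bases apart at 24 of the 84 loci and ended more than 300 bases apart at 27, against 42 and 28 of the 97. Among loci with both rows in GENCODE, exactly 1 row was of a type other than protein coding at 5 of 42, against 16 of 44 in the swapped pairing. These counts were not tested.

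Among the loci named by rule, most of which have the widest margins, several act in mitochondria or in heme breakdown, beside Ndufv1 above. Dnm1l encodes the dynamin-related GTPase that divides mitochondria and peroxisomes, and its alternative exons are known to be used differently in neurons. Its induction row (ENSMUST00000023477, 18 exons, chromosome 16, 16312235 to 16359030, GRCm38) was at 41.6 and 40.8 FPKM in NIM, 1.71 in heme and 1.73 and 1.68 in control. Its control row was a StringTie transcript with 19 exons and 14 more bases (4031 against 4017). That row was at 7.21 and 5.64 FPKM in NIM, 47.5 in heme and 46.8 and 46.4 in control. The rows did not match GENCODE M21 in position, exon number and length, so their exons were not compared. Neither row overlapped between NIM and control, but the rule selected on these values, so nothing is read from that. The replicates lay close together, and the heme library matched the controls. The sum was 48.8 and 46.5 FPKM in NIM, 49.2 in heme and 48.6 and 48.1 in control. The log2(FPKM + 1) difference, NIM minus control, was -0.02 ± 0.077 (limma SE, 2 libraries each). This SE, like those below, draws on the spread of the other loci as well as on that of the locus itself. The summed Dnm1l level thus differed by less than this SE while the highest row differed.

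Hmox1 and Blvra encode heme oxygenase 1 and biliverdin reductase A, consecutive enzymes of heme breakdown. The induction row of Hmox1 (ENSMUST00000005548) was at 76.6 and 44.3 FPKM in NIM, 10.9 in heme and 7.44 and 38.3 in control. Its control row, a StringTie transcript, was at 1.80 and 1.31 FPKM in NIM, 49.5 in heme and 35.3 and 179 in control. The sum was 79.4 and 46.2 FPKM in NIM, 61.9 in heme and 43.7 and 222 in control. Control replicate 2 stood apart in level, yet in share the controls were alike and far from NIM.

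For Blvra, the induction row (ENSMUST00000002064) was at 11.6 and 12.7 FPKM in NIM, 3.29 in heme and 2.85 and 2.12 in control, and the control row at 1.65 and 2.67 in NIM, 9.89 in heme and 10.2 and 11.3 in control. The 2 Blvra rows began 9610 bases apart. At both enzymes the control row led in heme.

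Slc25a5 encodes the ADP/ATP carrier of the inner mitochondrial membrane, and was chosen after its values were seen. Its induction row was at 197 and 182 FPKM in NIM, 179 in heme and 60.9 and 18.6 in control. The control row, a StringTie transcript of 8 exons that began 51940 bases upstream at a locus that also lists Slc25a43, was listed at 0 in NIM and heme and was at 88.5 and 114 FPKM in control. Both rows ended at the same base, and whether the long row joins the 2 genes was not tested. The sum was 319 and 305 FPKM in NIM, 302 in heme and 191 and 192 in control, a log2 difference of 0.70 ± 0.063 (SE). This sum is that of the whole locus, with Slc25a43, and not the level of Slc25a5 alone. That long row was thus above 0 in the control libraries alone among the 5.

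Genes of the cytoskeleton and centrosome are given next. The loci named by rule are ordered by function for reading only, and these groups were not counted among the eligible loci. Eps8 encodes an actin-capping and bundling protein that also binds the EGF receptor pathway. Its induction row (ENSMUST00000111878) was at 13.5 and 13.3 FPKM in NIM and listed at 0 in heme and control, and its control row (ENSMUST00000058210) was at 0.209 and 1.57 in NIM, 12 in heme and 13.2 and 11.7 in control. The rows began at the same base, shared a coding sequence of 2463 bases and ended 932 bases apart, so that the listed difference lay outside the coding part.

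Capg, an actin filament capping protein, also kept 1 coding sequence, with its starts 146 bases apart. Its induction row was at 47.8 and 44.3 FPKM in NIM, 41.4 in heme and 8.28 and 7.65 in control, and its control row at 0.226 and 0.215 in NIM, 0.202 in heme and 38.5 and 39.0 in control. Here heme was like NIM.

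Psrc1, a spindle protein that binds microtubules, had rows of 1686 and 1687 bases. The induction row was at 16.3 and 14.7 FPKM in NIM, 1.96 in heme and 2.83 and 2.51 in control, and the control row at 0.875 and 0.916 in NIM, 13.2 in heme and 12.4 and 12.8 in control. The coding sequence was the same in both.

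Cep57, a centrosome protein, had its longer row (ENSMUST00000147115, coding sequence of 1422 bases) at 10.3 and 11.4 FPKM in NIM, 10.6 in heme and 2.62 and 3.01 in control. Its shorter row (ENSMUST00000124883, 1053 bases), which began 8269 bases downstream, was listed at 0 in NIM and heme and was at 13.2 and 14.8 FPKM in control. The heme library was like NIM at both rows.

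Several named genes belong to the secretory pathway. Erlin1 encodes an endoplasmic reticulum protein that takes part in degradation of the inositol trisphosphate receptor. Its induction row was at 16.8 and 16.4 FPKM in NIM, 1.16 in heme and 1.59 and 1.94 in control, and its control row at 0.762 and 1.93 in NIM, 17.7 in heme and 18.3 and 17.7 in control. The coding sequence of 1044 bases was the same in both and the starts were 259 bases apart.

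Ssr2, a subunit of the translocon-associated complex, kept its coding sequence of 549 bases. Its induction row was at 74.3 and 70.2 FPKM in NIM, 3.86 in heme and 3.94 and 6.15 in control, and its control row at 8.60 and 3.46 in NIM, 103 in heme and 103 and 90.9 in control. Its sum was 110 and 103 FPKM in NIM, 110 in heme and 111 and 101 in control, a log2 difference of 0.01 ± 0.083 (SE). The rows changed places while the level of the locus differed by less than its limma SE.

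Tpst2, a Golgi enzyme that sulfates tyrosines, had its induction row at 16.5 and 23.9 FPKM in NIM, 6.91 in heme and 2.52 and 1.53 in control, and its control row at 1.57 and 2.79 in NIM, 21.5 in heme and 16.3 and 14.9 in control. Tex264, a receptor for the autophagy of endoplasmic reticulum, had its induction row at 12.3 and 13.8 FPKM in NIM, 0.574 in heme and 0.548 and 0.561 in control, and its control row at 2.89 and 2.12 in NIM, 14 in heme and 16.7 and 14.3 in control. Both kept their coding sequence, and both had the control row highest in heme.

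Sec24d, a cargo adaptor of COPII vesicles, and Cog4, a subunit of the Golgi tethering complex, each had 1 StringTie row. The induction row of Sec24d was at 45.1 and 39.5 FPKM in NIM, 41.8 in heme and 11.0 and 7.50 in control, and its control row at 2.29 and 8.48 in NIM, 4.83 in heme and 35.0 and 41.4 in control. The induction row of Cog4 was at 8.23 and 11.3 FPKM in NIM, 6.96 in heme and 2.36 and 1.65 in control, and its control row at 2.38 and 1.52 in NIM, 5.52 in heme and 13.5 and 11.0 in control. The heme library was like NIM at Sec24d and between the groups at Cog4.

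Among genes of transcription, chromatin and RNA, Btaf1 had the widest margin of the 84. It encodes an ATPase that removes TATA-binding protein from DNA. Its induction row, a StringTie transcript, was at 11.6 and 11.4 FPKM in NIM, 1.80 in heme and 0.330 and 0.452 in control, and its control row (ENSMUST00000099494) at 1.11 and 0.933 in NIM, 12.3 in heme and 12.4 and 15.7 in control. The rows had 38 exons each and lengths of 8790 and 7204 bases.

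Kansl1, a scaffold of the NSL histone acetyltransferase complex, switched between 2 StringTie rows that carry no symbol of their own at this locus. Its induction row was at 8.99 and 10.4 FPKM in NIM, 0.797 in heme and listed at 0 in control, and its control row was at 0.220 and 0.0245 in NIM, listed at 0 in heme and at 10.5 and 11.9 in control. In heme neither row led.

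Gtf2e1, a subunit of the basal factor TFIIE, had its induction row at 10.2 and 9.71 FPKM in NIM, 9.96 in heme and 0.784 and 1.61 in control, and its control row at 1.41 and 0.871 in NIM, 1.07 in heme and 10.6 and 9.99 in control. Cnot10, a subunit of the CCR4-NOT deadenylase, had its induction row at 15.1 and 15 FPKM in NIM, 14.9 in heme and 3.25 and 0.913 in control, and its control row listed at 0 in NIM and heme and at 13.1 and 19.97 in control. In both, the heme library was within or next to the NIM values.

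Tbl3 takes part in ribosomal RNA processing, and its control row is annotated as a retained intron rather than a coding transcript. The induction row was at 11.5 and 10.7 FPKM in NIM, 10.7 in heme and 2.78 and 4.48 in control, and the control row was listed at 0 in NIM and heme and was at 15.2 and 14.2 in control. Psmg1, a chaperone of proteasome assembly, had its induction row at 24.2 and 25 FPKM in NIM, 22.9 in heme and 0 in both controls, and its control row at 9.64 and 9.73 in NIM, 8.34 in heme and 21.2 and 17.9 in control. In both loci heme was like NIM.

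Surface and matrix genes were Tnc and Il1r1. Tnc encodes tenascin C, a matrix glycoprotein of neural progenitor niches that is known for alternatively spliced repeats. Its induction row, a StringTie transcript of 25 exons, was at 32.2 and 27.7 FPKM in NIM, 27.8 in heme and 4.34 and 2.03 in control, and its control row of 26 exons at 1.24 and 3.49 in NIM, 3.39 in heme and 23.9 and 16.2 in control. The row with 1 exon fewer led in NIM and heme.

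Il1r1, the receptor for interleukin 1, had its 2 rows start at different promoters on chromosome 1, plus strand, 41506 bases apart. The induction row (ENSMUST00000114795, start at 40266586) was at 9.20 and 8.74 FPKM in NIM, 4.93 in heme and 0.454 and 0.694 in control. The control row (ENSMUST00000027241, start at 40225080) was at 3.20 and 3.30 FPKM in NIM, 3.07 in heme and 10.7 and 9.02 in control. Heme lay between NIM and control at the induction row. The 250 bases before each start are shown because the rows begin at different starts. The rows also ended 1056 bases apart, and their coding sequences were 1719 bases in the induction row and 1728 in the control row. The sequences are from RefSeq (GRCm38.p6), whose transcription starts lay at the same base as the starts of the rows, with each CG dinucleotide in capitals.
Il1r1, induction row, chr1:40266336-40266585, plus strand: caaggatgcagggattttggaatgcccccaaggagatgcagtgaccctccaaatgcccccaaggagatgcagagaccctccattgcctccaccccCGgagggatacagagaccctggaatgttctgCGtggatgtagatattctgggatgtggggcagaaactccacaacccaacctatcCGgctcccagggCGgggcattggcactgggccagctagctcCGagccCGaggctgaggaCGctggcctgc
Il1r1, control row, chr1:40224830-40225079, plus strand: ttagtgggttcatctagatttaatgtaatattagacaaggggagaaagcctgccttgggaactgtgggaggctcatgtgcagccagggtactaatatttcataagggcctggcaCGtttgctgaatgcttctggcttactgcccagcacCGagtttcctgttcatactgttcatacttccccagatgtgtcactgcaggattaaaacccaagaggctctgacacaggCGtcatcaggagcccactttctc
The stretch before the induction row held 60.4% G and C and 7 CG dinucleotides, and that before the control row 48.4% and 3. The letters CG read the same on both strands. The median of 32851 RefSeq promoters over the same 250 bases was 52.4% and 6, with 43.0% holding more than 7 and 62.2% more than 3. This describes the letters only.

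The rule also names loci whose rows carry different gene symbols, since a StringTie locus can join neighbours. At the locus of Ubl4a, part of the pathway that inserts tail-anchored proteins, and Slc10a3, a transporter family member, the Slc10a3 row was at 6.54 and 8.43 FPKM in NIM, 4.30 in heme and 4.85 and 4.19 in control. The Ubl4a row was at 5.18 and 7.55 FPKM in NIM, 7.53 in heme and 6.03 and 9.80 in control. At the locus of Msl1, a scaffold of a histone acetyltransferase complex, and Casc3, an exon junction protein, the Msl1 row was at 20.4 and 19.3 FPKM in NIM, 15.2 in heme and 16.4 and 11.1 in control. The Casc3 row was at 19.5 and 18.5 FPKM in NIM, 13.9 in heme and 18 and 19 in control. These 2 loci compare neighbouring genes, not isoforms, and their margins were 3.90 and 1.72 points. H2-K1, Ly6c1 and Erdr1, also among the 84, have near-identical relatives in the genome, and their values are uncertain for that reason.

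The summed levels of the switched loci differed between the groups in both directions. Sums were higher in NIM with no overlap at 19 of the 84, lower with no overlap at 19, and overlapped at 46, against 16.9% higher and 13.9% lower among the 2623 eligible loci. The median log2 difference of the sums was 0.0024 for the 84 and 0.013 for the eligible loci, and the median absolute difference 0.17 and 0.094. H13, the signal peptide peptidase, had a sum of 18.8 and 17.5 FPKM in NIM, 16.7 in heme and 28.8 and 37.1 in control, a log2 difference of -0.82 ± 0.155 (SE). Ergic2, a protein that cycles between endoplasmic reticulum and Golgi, had 15.2 and 21.2 FPKM in NIM, 14.6 in heme and 33.3 and 35.1 in control, a difference of -0.89 ± 0.181. Both were chosen after their values were seen. At these loci the control libraries were the higher, and heme lay below NIM.

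**Figure D4:**
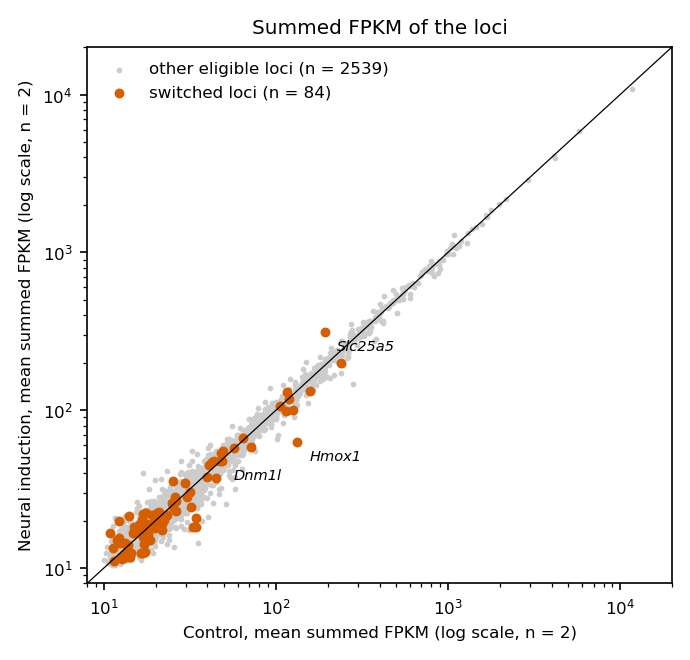
Mean summed FPKM of each locus in NIM (vertical axis) against control (horizontal axis), both log scales, 2 libraries each, for 84 switched and 2539 other eligible loci; the line marks equal levels. Switched loci lie on both sides of the line, with the locus of Slc25a43 and Slc25a5 (marked Slc25a5) above it and Hmox1 below. Hmox1 stands at 222 FPKM in control replicate 2.

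Across all rows, limma called 1 of 13737 different between NIM and control at an adjusted p below 0.05 (0.00728%), and 684 had an unadjusted p below 0.05. Of the 168 rows of the switched loci it called 0, with 104 below 0.05 unadjusted and a lowest adjusted p of 0.176 by limma. With all 6 columns, that is with the heme copy counted as a replicate, 86 rows were called, 34 of them from the switched loci. As the rule selected rows on this contrast, nothing is read from these counts. Over locus sums limma called 1 of 7039 (0.0142%), 215 were below 0.05 unadjusted, and 0 of the 84 were called.

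The heme library took no part in the rule, though it is set against the same control libraries. Its highest row was the control row at 41 of the 84 loci (48.8%), the induction row at 36 (42.9%) and another row at 7, which include Kansl1, Ndufv1 and Wac. At the 1487 loci with 1 highest row in all 4 libraries, heme had that row at 1353 (91.0%). Of the 20 loci with a margin of at least 50 points, heme had the control row at 11, the induction row at 7 and another at 2. The heme library thus did not side with either group as a whole. Among the wide switches it carried the control row at Btaf1, Erlin1, Eps8, Dnm1l, Hmox1 and Ssr2, and the induction row at Gtf2e1, Cep57, Capg, Cnot10, Tnc and Sec24d. For the 97 swapped loci heme had the row of the number 2 libraries at 40 and that of the number 1 libraries at 51. With 1 heme library there is no replicate check.

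**Figure D5:**
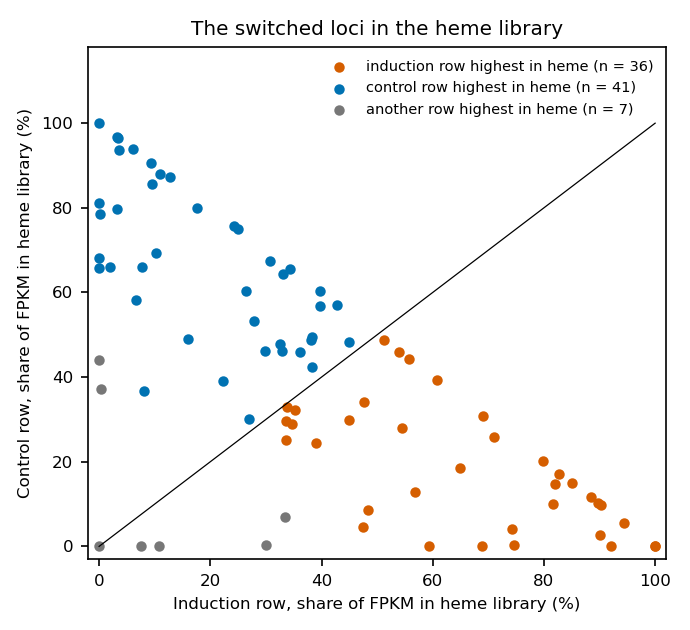
Share of the locus FPKM in the heme library held by the induction row (horizontal axis, percent) and by the control row (vertical axis, percent), 1 point per switched locus; the line marks equal shares. Points fall towards both corners, with 36 loci led by the induction row, 41 by the control row and 7 by another row.

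The 84 were also read against 3 gene lists. Of 51 splicing regulators, 36 were listed and 32 loci were eligible, of which 0 switched by condition, 0 switched in the swapped pairing and 20 kept 1 highest row throughout. Of 47 genes with isoforms known to differ in neural cells, 29 loci were eligible, of which Dnm1l alone switched by condition, Src alone in the swapped pairing, and 21 kept 1 row. Of 22 genes of mitochondrial dynamics, 9 loci were eligible, of which Dnm1l switched by condition, Mtfr1 and Mfn1 in the swapped pairing, and 5 kept 1 row. The share of all eligible loci that switched was 3.2%, so 1 of 29 lies near the background.

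At the floor of 10 FPKM the members just inside were E2f1, with a lowest sum of 10.1 FPKM, Il1r1 with 10.3 and Cep57 with 10.3. Galk2 with 9.92, Nipa2 with 9.81 and Zfp275 with 9.67 met the rest of the rule but lay just outside.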

How the data were processed

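RNA was sequenced from C17.2 cells in 3 groups of 2 replicates (neural induction, heme and control), with TruSeq RNA libraries from total RNA, per the labels' protocols. The submitters' processing notes name HISAT2, StringTie, edgeR and the build GRCm38 (mm10), with no versions. The authors deposited FPKM and coverage (signal per base) for 15113 assembled transcripts of 7171 loci, in 1 table; 10948 rows have an Ensembl identifier and 4165 a StringTie identifier only. How these rows were chosen from the assembly is not stated, and unlisted transcripts of a locus are not in its sum. The deposited fold-change, p-value and score tables were not used.

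Shares, margins, sums and the rule were computed from FPKM with Python 3.11.15 and pandas 2.3.3. The heme replicate 2 column was left out as a rescaled copy of replicate 1. Rows were matched to GENCODE M21 (GRCm38) by identifier, position, exon number and length (9515 rows), and starts to RefSeq promoters (GRCm38.p6). Limma 3.58.1 in R 4.3.3 (intensity trend, two-sided, Benjamini-Hochberg over all rows) was run on log2(FPKM + 1). Rows had at least 1 FPKM in at least 2 of 5 libraries, and the lone heme library was assumed to vary like the others. The fit was also run on simulated data with a fixed spread for all rows, which does not show how it performs at the spread seen here. FPKM is no count, so no count model was used. On this log scale differences of low rows are understated. The labels call the replicates biological; nothing says more of how they were raised.

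Named loci are the 25 with a symbol and the widest margin, members in the 3 gene lists, loci joining 2 gene symbols, and 3 on each side of the floor of 10 FPKM; 1 named locus is not reported here. The members and lists were chosen with earlier results of these data known. Alternatives changed the floor, the ratio of highest to second row, the identifiers used, the grouping, the pseudocount, the scaling, the filter and the libraries. Whether replicate numbers pair samples is not stated. Deviations from the group means correlated at -0.014 over 14142 rows. That value covers all rows together and cannot settle pairing for the highest row of a locus.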

Additional observations from a re-analysis of the deposited data

How the results depend on the processing

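Counts are given for loci switched by condition and then for the swapped pairing. A floor of 5 FPKM gave 131 (swapped 137), a floor of 20 gave 31 and 50, and no floor 179 and 189. Asking a ratio of 1.5 gave 33 and 27, of 2 gave 25 and 17, and of 3, added after the data were seen, 19 and 7. Ensembl rows alone gave 55 and 50, grouping by gene symbol 54 and 49, and, added after the data were seen, rows that both match GENCODE 42 and 44 and loci with at most 1 symbol 80 and 94. The swapped count was the smaller under the 3 ratios, the Ensembl rows and the gene symbols, and the larger under the 3 floors, with GENCODE rows, with at most 1 symbol and as reported. With 1 library left out the counts ran from 272 to 316 and from 275 to 340, since 1 library then sets a group's row. The median margin then ran from 20.8 to 23.6 points, against 14.7.

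The heme library had the control row and the induction row at 66 and 55 loci with a floor of 5, 15 and 14 with 20, 92 and 75 with none, 14 and 15 at a ratio of 1.5, 12 and 10 at 2, and 28 and 23 by symbol. Limma called 86 rows with all 6 columns, 0 without a filter and 0 to 0 with 1 library left out, against 1. With the replicate number as a block limma called 0, with 503 rows below an unadjusted p of 0.05. Whether these numbers pair the samples is not known. The cause of these differences was not tested.

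The median sum difference of the 84 was -0.015 after scaling the libraries and -0.038 to 0.038 with 1 library left out. Isoform FPKM is an estimate, each group has 2 libraries, and the heme group 1, so no switch has more than 2 replicates behind it. Depth is known only as mapped bases.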

Other observations

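The swapped pairing held wide switches of its own, given as values. Maz, a zinc finger transcription factor, had 1 row (ENSMUST00000206254) at 31.9 and 3.30 FPKM in NIM replicates 1 and 2, 30.4 in heme and 31.6 and 1.71 in control replicates 1 and 2. Its other row (ENSMUST00000032916) was at 0.219 and 37.1 FPKM in NIM, 0.241 in heme and 0.00333 and 42.0 in control. Asns, asparagine synthetase, had 1 row at 90.2 and 13.2 FPKM in NIM, 11.7 in heme and 94.0 and 10.9 in control, and the other at 2.11 and 75.4 in NIM, 83.3 in heme and 2.61 and 85.3 in control. Vegfa, the vascular endothelial growth factor, had 1 row at 11.5 and 0.0923 FPKM in NIM, 11.0 in heme and 11.7 and 0.115 in control, and the other at 0.000479 and 12.5 in NIM, 0.764 in heme and 0.000503 and 17.1 in control. In all 3, replicate 1 of NIM went with replicate 1 of control and replicate 2 with replicate 2, while heme replicate 1 went with the number 1 libraries at Maz and Vegfa and with the number 2 libraries at Asns. These are the loci with the widest margins in that pairing, and the cause was not tested.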
